A study of Mus musculus with 20 samples.

Results

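The 34 genes described here encode enzymes of cholesterol and fatty acid synthesis and the proteins that control them through the sterol regulatory element-binding proteins (SREBPs). They were found by matching the Ensembl identifiers of the count table, through the GENCODE annotation of GRCm38, to a list of symbols. All 34 were present among the 55471 genes of the table, and all 34 were among the 17893 genes with enough counts to be tested. By role, 7 belonged to the mevalonate pathway and 11 to the steps from squalene to cholesterol, which together form the sterol branch of 18 genes. A further 10 belonged to fatty acid synthesis and desaturation, and 6 were regulators or sterol carriers. The list is a selection from the pathway and does not hold every enzyme of it.

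SREBPs are transcription factors that are made as membrane proteins of the endoplasmic reticulum. When membrane sterol is low, the escort protein encoded by Scap carries them to the Golgi, where proteases release the active factor, and when sterol is high the Insig proteins hold Scap back. The factor encoded by Srebf2 acts mainly on sterol synthesis and the main product of Srebf1 on fatty acid synthesis. In the brain almost all cholesterol is made locally, because plasma lipoproteins do not cross the blood-brain barrier, and myelin holds most of it. Several antipsychotic drugs are known to raise SREBP target genes in cultured cells, which makes these genes a point of interest under risperidone, an atypical antipsychotic that blocks dopamine and serotonin receptors.

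RNA from hypothalamus slices of wild type C57BL/6 mice was sequenced in 20 libraries as paired-end reads of 150 bp. The control group (7 libraries) ate a control diet ad libitum, the ad libitum risperidone group (7 libraries) ate a risperidone diet freely, and the pair-fed risperidone group (6 libraries) received the risperidone diet under pair feeding. The amount given, and the group it was matched to, are not stated in the labels, which say that body weight did not differ from control without making clear whether that holds for both risperidone groups. The risperidone diet lasted 4 weeks. There was no pair-fed group without drug, so in the pair-fed comparison with control the drug and the limit on feeding cannot be told apart. The labels give neither age nor sex. They also do not say that different libraries came from different mice, and the p-values therefore reflect only sample-to-sample variation, part of which could be technical.

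Total counts were 17316043 to 18606543 in 19 libraries. Ad libitum risperidone library 3 stood apart with 9748005 counts, of which 32.2% fell in ribosomal RNA genes, against 2.51% to 5.95% elsewhere. Ad libitum risperidone library 1 also stood apart: its 8 markers of cortex, hippocampus and amygdala summed to 1280 CPM (counts scaled to library size in the usual unit of edgeR), against at most 274.6 CPM in every other library of its group, at most 218.9 CPM in control and at most 198 CPM in pair-fed libraries. Its 8 markers of oligodendrocytes and myelin summed to 3252 CPM, against 6024 to 9785 CPM in the other libraries. All 10 hypothalamus markers examined, among them Pomc, Agrp, Hcrt and Pmch, had counts in each group. Their sum was 1161 to 1523 CPM in control, 547.7 to 1351 CPM in ad libitum risperidone, with library 1 lowest, and 901.3 to 1309 CPM in pair-fed libraries. For several of the members described in full below, values are also given without ad libitum libraries 1 and 3. Where no such value is given, among them for Mvd, Fdft1, Sqle and Hsd17b7, the estimates include both libraries.

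Per length of transcript, in scaled CPM per kilobase of exon (RPKM), the desaturases led the list. In control libraries Scd2, the main stearoyl-CoA desaturase of brain, stood at 287.5 ± 15.2 RPKM (SD, n = 7). It was above 99.6% of the genes tested. Next came Fads2 at 76.4 ± 2.06, Scd1 at 65.1 ± 3.49 and Fads1 at 55.8 ± 1.96 RPKM, which are the delta-6, delta-9 and delta-5 desaturases. The highest gene of the sterol branch was Hmgcs1, the enzyme that makes HMG-CoA from acetyl units, at 43.4 ± 1.06 RPKM, followed by Fdft1, squalene synthase, at 29.3 ± 1.22 RPKM. Among regulators Srebf2 stood at 27.7 ± 0.743 RPKM and Srebf1 at 13.6 ± 0.79 RPKM. The lowest members were Tm7sf2 at 3.73 ± 0.175, Hsd17b7 at 1.90 ± 0.165 and Fdps at 0.34 ± 0.061 RPKM. The Fdps value is uncertain, since 1124 of its exon bases are shared with the gene Gm43738 on the same strand and reads that fit both genes may have been left uncounted. Overlaps with genes on the other strand also make the counts of Hmgcs1, Idi1, Fdft1, Lss, Cyp51, Srebf1, Scap, Acss2, Me1 and Elovl6 less certain, because the strand setting of the counting is not given. Tm7sf2 shares exon bases with Vps51 on its own strand. Reads of Acat2 and of the Scd genes could also be split with near copies, of which Acat3 was at 1.79 CPM and Scd3 at 3.95 CPM.

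**Figure D1:**
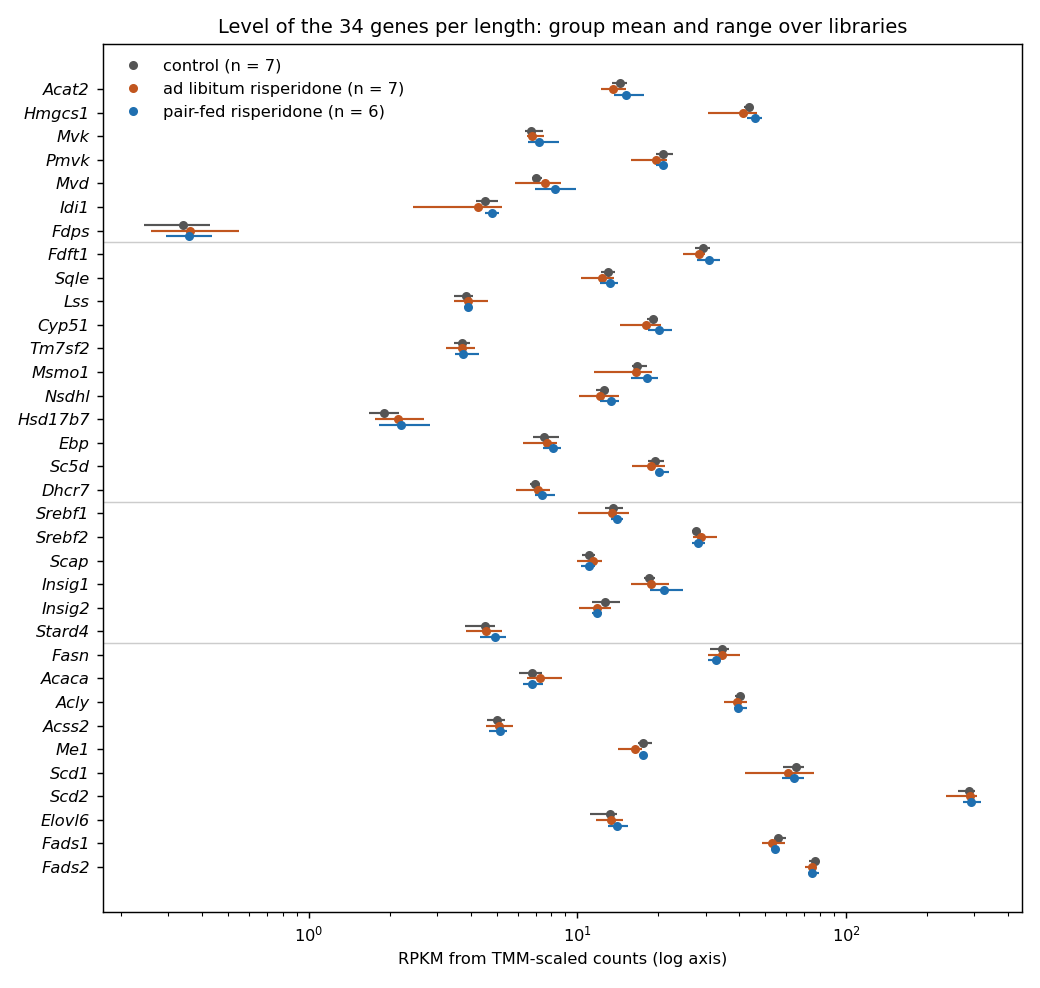
Level of each of the 34 genes in RPKM (log axis), with a point for the mean of each group and a line from its lowest to its highest library. Levels span from Fdps at 0.34 RPKM to Scd2 at 287.5 RPKM in control, and for each gene the lines of the 3 groups overlap.

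The members varied little between libraries of a group. Their median within-group standard deviation was 0.106 on the log2 scale, against 0.159 over all genes tested and 0.114 over the genes with a mean of at least 10 CPM. Fads2 was the steadiest, at 0.0482, and Fdps (0.287) and Idi1 (0.227) varied most.

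The list is defined by a shared regulator, so the promoters of the members were searched for 3 motifs, on both strands, in the windows of 250 bases before to 50 bases after each transcription start (RefSeq, GRCm38.p6). Of the 34 genes, 27 were in the promoter table, in 36 windows. Sqle, Fdft1, Fdps, Stard4, Scd1, Scd2 and Fads1 were not. The sterol regulatory element TCACNCCAC was found in 1 of 27 members, Hmgcs1, and in 1.44% of all 27025 genes of the table. The NF-Y box CCAAT was found in 22 of 27 members (81.5%), against 41.1% of all genes, and the Sp1 box GGGCGG in 23 of 27 members (85.2%), against 38.2% of all genes. All genes here include many that were not tested in these libraries, whereas all members were. The shares among tested genes alone were not computed. NF-Y and Sp1 are general promoter factors that are known to act beside SREBPs. Letters of different matches overlapped in 1 member window. A match is a description and not a site shown to be bound, and a window without these letters says nothing about SREBP binding.

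A stretch of 160 bases, ending just before the RefSeq or the GENCODE start, whichever lies further upstream, is shown for Hmgcs1, the member with the sterol element, and for Mvd, Insig1 and Hsd17b7, which had the smallest p in the pair-fed comparison below. Each runs 5′ to 3′ along the strand of the gene, and capitals mark the motifs on either strand. For Hmgcs1 and Mvd the stretch ends at the RefSeq start used for the windows above, and for Insig1 and Hsd17b7 it ends 49 and 36 bases before that start. They lie at chr13:119690191-119690350 (plus strand), chr8:122443423-122443582 (minus), chr5:28071203-28071362 (plus) and chr1:169969242-169969401 (minus) of GRCm38.p6.
Hmgcs1: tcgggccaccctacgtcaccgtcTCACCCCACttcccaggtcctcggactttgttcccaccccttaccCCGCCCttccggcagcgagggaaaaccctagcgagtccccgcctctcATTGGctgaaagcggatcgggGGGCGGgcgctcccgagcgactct
Mvd: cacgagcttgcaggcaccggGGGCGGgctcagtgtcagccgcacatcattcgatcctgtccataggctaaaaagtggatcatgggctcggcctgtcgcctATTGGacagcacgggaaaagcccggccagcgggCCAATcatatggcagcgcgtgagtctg
Insig1: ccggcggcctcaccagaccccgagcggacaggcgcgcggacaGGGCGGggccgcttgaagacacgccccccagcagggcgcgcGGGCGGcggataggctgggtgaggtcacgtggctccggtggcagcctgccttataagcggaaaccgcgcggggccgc
Hsd17b7: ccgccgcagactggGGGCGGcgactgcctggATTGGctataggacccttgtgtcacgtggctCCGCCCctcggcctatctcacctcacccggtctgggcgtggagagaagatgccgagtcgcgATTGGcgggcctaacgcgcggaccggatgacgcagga
The Hmgcs1 stretch holds 1 sterol element, 1 NF-Y box and 2 Sp1 boxes. The Mvd stretch holds 2 NF-Y boxes and 1 Sp1 box, and that of Hsd17b7 holds 2 of each. The Insig1 stretch holds 2 Sp1 boxes and no NF-Y box, and the CCAAT of its window lies outside the bases shown.

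No member passed the threshold of an adjusted p under 0.05 in any of the comparisons. In ad libitum risperidone against control, 0 of 34 members were called by edgeR's quasi-likelihood test, where 0.0615% of all genes were called. At an unadjusted p under 0.05, 0 members were higher, where 7.14% of all genes were, and 1 was lower, where 5.97% of all genes were. DESeq2 also called 0 members and gave 1 at an unadjusted p under 0.05, and limma-voom gave 0 and 0. In pair-fed risperidone against control the count was again 0 of 34, with 0.486% of all genes called. There 3 members were higher at an unadjusted p under 0.05, against 3.06% of all genes, and 0 were lower, against 3.6%. DESeq2 gave 0 calls with 3 unadjusted, and limma-voom 0 with 2.

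Between the risperidone groups, which compares pair-fed with ad libitum feeding under drug, 0 of 34 members were called, with 0.397% of all genes called. At an unadjusted p under 0.05, 7 members were higher in the pair-fed group, against 6.09% of all genes, and 0 were lower, against 7.44%. The number of members at an unadjusted p under 0.05 rests on few libraries. It was 1 without pair-fed library 1, 2 without pair-fed library 3 and 3 without ad libitum library 3, and at most 8 in any setting. DESeq2 gave 0 calls with 7 unadjusted, and limma-voom 0 with 2. With both risperidone groups averaged and set against control, 0 of 34 members were called, with 0.33% of all genes called. There 2 members were higher at an unadjusted p under 0.05, against 3.55% of all genes, and 0 were lower, against 4.27%. DESeq2 and limma-voom each gave 0 calls with 2 unadjusted. The libraries of the groups overlapped for each member in each comparison. The share of all genes tested with such overlap was not computed, so this sets the members apart in no way.

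The intervals bound how large a difference these libraries could hide. A log2 difference of 1 is a change by a factor of 2. All 34 members had a 95% interval within 0.5 of zero on the log2 scale in each comparison, where 73.8% to 81.9% of all genes tested did. Of the genes with a mean of at least 10 CPM, 94.7% to 97.5% did. Within 0.25 of zero lay the intervals of 29 members in ad libitum and 27 in pair-fed risperidone against control. Between the risperidone groups 24 did, and 31 for the mean of both. In that order these were 85.3%, 79.4%, 70.6% and 91.2% of members, against 47.4%, 49.3%, 43.9% and 55.6% of all genes tested. Among genes with a mean of at least 10 CPM the shares were 74.7%, 78.5%, 70.1% and 84.8%. The bound farthest from zero belonged to Fdps, at 0.45 in ad libitum risperidone against control.

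**Figure D2:**
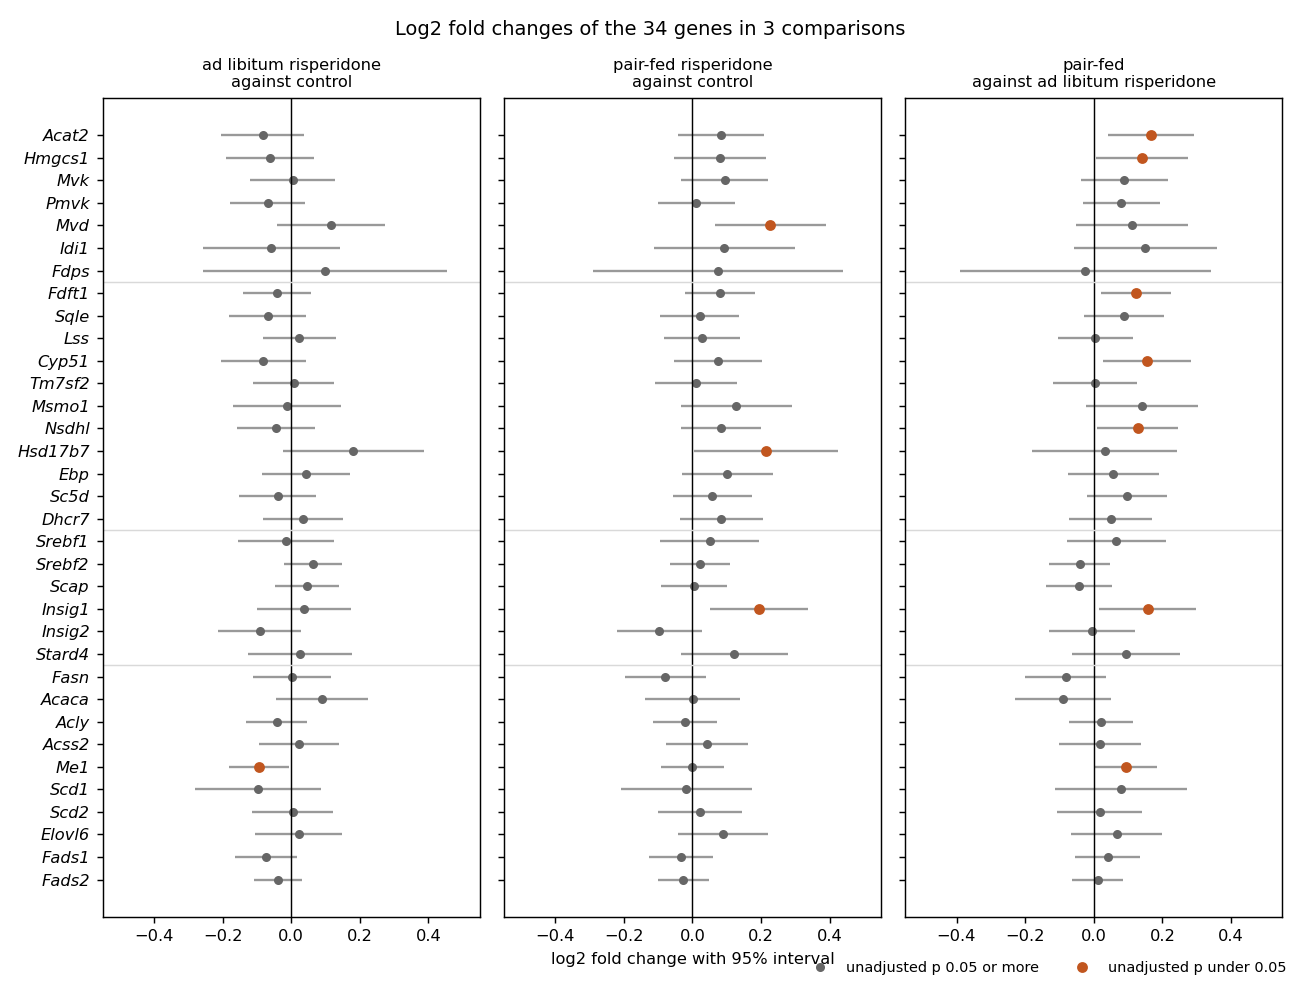
Log2 fold change (point) with its 95% interval (line) for each of the 34 genes in 3 comparisons, by role from the mevalonate pathway at the top to fatty acid synthesis at the bottom. Points at an unadjusted p under 0.05 are orange: 1 in ad libitum risperidone against control, 3 in pair-fed risperidone against control and 7 between the risperidone groups, and none of these passed the adjusted threshold.

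Within the mevalonate pathway, Mvd, which decarboxylates mevalonate pyrophosphate, had the smallest p of any member in the pair-fed comparison. Its level was 12.55 to 13.72 CPM in control (median 12.94), 10.84 to 16.21 CPM in ad libitum risperidone (median 14.67) and 12.92 to 18.4 CPM in pair-fed libraries (median 15.15). The lowest pair-fed library lay inside the control range, and 5 of 6 were above the control mean. Mvd had a log2 fold change of 0.23 (SE 0.078) in pair-fed risperidone against control, with an edgeR adjusted p of 0.413, and 0.12 (SE 0.076) in ad libitum risperidone against control, with an adjusted p of 0.536. Over both risperidone groups it was 0.17 (SE 0.0665), with an adjusted p of 0.492 and 10 of 13 libraries above the control mean. Without pair-fed library 1, its highest, the pair-fed value was 0.17 (adjusted p 0.845).

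Hmgcs1 was 191.9 to 205.9 CPM in control (median 200.2), 141.3 to 214.9 CPM in ad libitum risperidone (median 194.8) and 196.5 to 223.8 CPM in pair-fed libraries (median 209.8). The value of 141.3 CPM came from ad libitum library 3, and the other 6 libraries of that group were at 187.8 CPM or more. Against control the log2 fold change was -0.06 (SE 0.0623, edgeR adjusted p 0.715) in ad libitum and 0.08 (SE 0.0647, adjusted p 0.935) in pair-fed risperidone. Between the risperidone groups it was 0.14 (SE 0.0648), with an adjusted p of 0.353 and 6 of 6 pair-fed libraries above the ad libitum mean. That value was 0.10 (adjusted p 0.377) without ad libitum libraries 1 and 3, and the ad libitum value was then -0.02.

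Acat2, which joins acetyl-CoA units in the cytosol, had the smallest p of any member between the risperidone groups. It was 34.18 to 39.04 CPM in control (median 36.21), 31.14 to 38.44 CPM in ad libitum risperidone (median 34.8) and 34.88 to 44.91 CPM in pair-fed libraries (median 36.97). The 2 highest pair-fed libraries were numbers 1 and 3, at 44.91 and 42.91 CPM, and the other 4 lay within the control range. Between the risperidone groups the log2 fold change was 0.17 (SE 0.0609), with an edgeR adjusted p of 0.252, and without pair-fed library 1 it was 0.12 (adjusted p 0.461). It was also 0.12 without ad libitum libraries 1 and 3 (adjusted p 0.497). Against control it was -0.08 in ad libitum risperidone, or -0.04 without those libraries, and 0.08 in pair-fed risperidone. The other members of the pathway are Mvk and Pmvk, the mevalonate kinases, Idi1, which isomerizes isopentenyl pyrophosphate, and Fdps, which makes farnesyl pyrophosphate. Their log2 fold changes were 0.00 for Mvk, -0.07 for Pmvk, -0.06 for Idi1 and 0.10 for Fdps in ad libitum risperidone against control. In pair-fed risperidone against control they were 0.09, 0.01, 0.09 and 0.07 in the same order, and the intervals of all 4 held zero in both comparisons.

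Of the steps from squalene to cholesterol, Hsd17b7, a ketoreductase that acts on sterol intermediates, had the largest estimates against control. It was 8.576 to 11.03 CPM in control (median 9.839), 9.014 to 13.67 CPM in ad libitum risperidone (median 11.41) and 9.328 to 14.41 CPM in pair-fed libraries (median 10.88). The groups overlapped widely, with 10 of 13 risperidone libraries above the control mean. Its estimates were log2 fold changes of 0.18 (SE 0.0988, edgeR adjusted p 0.439) in ad libitum and 0.21 (SE 0.102, adjusted p 0.737) in pair-fed risperidone against control. For both groups together it was 0.20 (SE 0.0866, adjusted p 0.57). The Hsd17b7 value of 13.67 CPM was that of ad libitum library 1.

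Sqle, squalene epoxidase, a classical SREBP target, was 67.7 to 76.84 CPM in control (median 71.21), 57.32 to 75.59 CPM in ad libitum risperidone (median 69.6) and 67.53 to 78.64 CPM in pair-fed libraries (median 73.51). Its lowest value was again that of ad libitum library 3. The log2 fold change against control was -0.07 (SE 0.054, edgeR adjusted p 0.618) in ad libitum and 0.02 (SE 0.0559, adjusted p 1) in pair-fed risperidone, and 0.09 (SE 0.0562, adjusted p 0.489) between the risperidone groups. Fdft1, squalene synthase, was 116.2 to 131.7 CPM in control, 104.1 to 126.4 CPM in ad libitum risperidone and 118.2 to 143.3 CPM in pair-fed libraries, with medians of 123.4, 123.6 and 130.9 CPM. Its log2 fold change was 0.12 (SE 0.0491, adjusted p 0.304) between the risperidone groups and 0.08 (SE 0.049, adjusted p 0.867) in pair-fed risperidone against control. The Fdft1 value of 104.1 CPM came from ad libitum library 3, and the other libraries of that group were at 116.5 CPM or more. Cyp51, lanosterol demethylase, was 80.18 to 88.19 CPM in control, 63.66 to 90.04 CPM in ad libitum risperidone and 80.89 to 99.73 CPM in pair-fed libraries. The medians of Cyp51 were 85.4, 81.56 and 88.66 CPM. Between the risperidone groups it stood 0.16 higher on the log2 scale (SE 0.0619, edgeR adjusted p 0.301), and against control -0.08 in ad libitum and 0.07 in pair-fed risperidone. Ad libitum libraries 1 and 3 were its lowest, and without them the value between the risperidone groups was 0.08 (adjusted p 0.56) and the ad libitum value -0.01 (adjusted p 0.96).

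The remaining steps are carried out by Lss, which cyclizes squalene epoxide to lanosterol, Tm7sf2, a sterol reductase, Msmo1 and Nsdhl, which remove methyl groups, and Ebp, Sc5d and Dhcr7, which move, add and remove double bonds of the ring. Their log2 fold changes against control ran from -0.04 (Nsdhl) to 0.04 (Ebp) in ad libitum risperidone and from 0.01 (Tm7sf2) to 0.13 (Msmo1) in pair-fed risperidone. Nsdhl was 0.13 (SE 0.0569) between the risperidone groups, with an edgeR adjusted p of 0.337, and 0.14 without ad libitum libraries 1 and 3 (adjusted p 0.191). Dhcr7, an enzyme that several psychotropic drugs inhibit, was 38.82 to 42.22 CPM in control, 34.4 to 46.14 CPM in ad libitum risperidone and 40.37 to 48.16 CPM in pair-fed libraries. Its log2 fold change was 0.03 and 0.08 against control in these 2 groups, and its 95% intervals reached from -0.08 to 0.15 and from -0.04 to 0.20. The ad libitum value was 0.00 without ad libitum libraries 1 and 3.

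**Figure D3:**
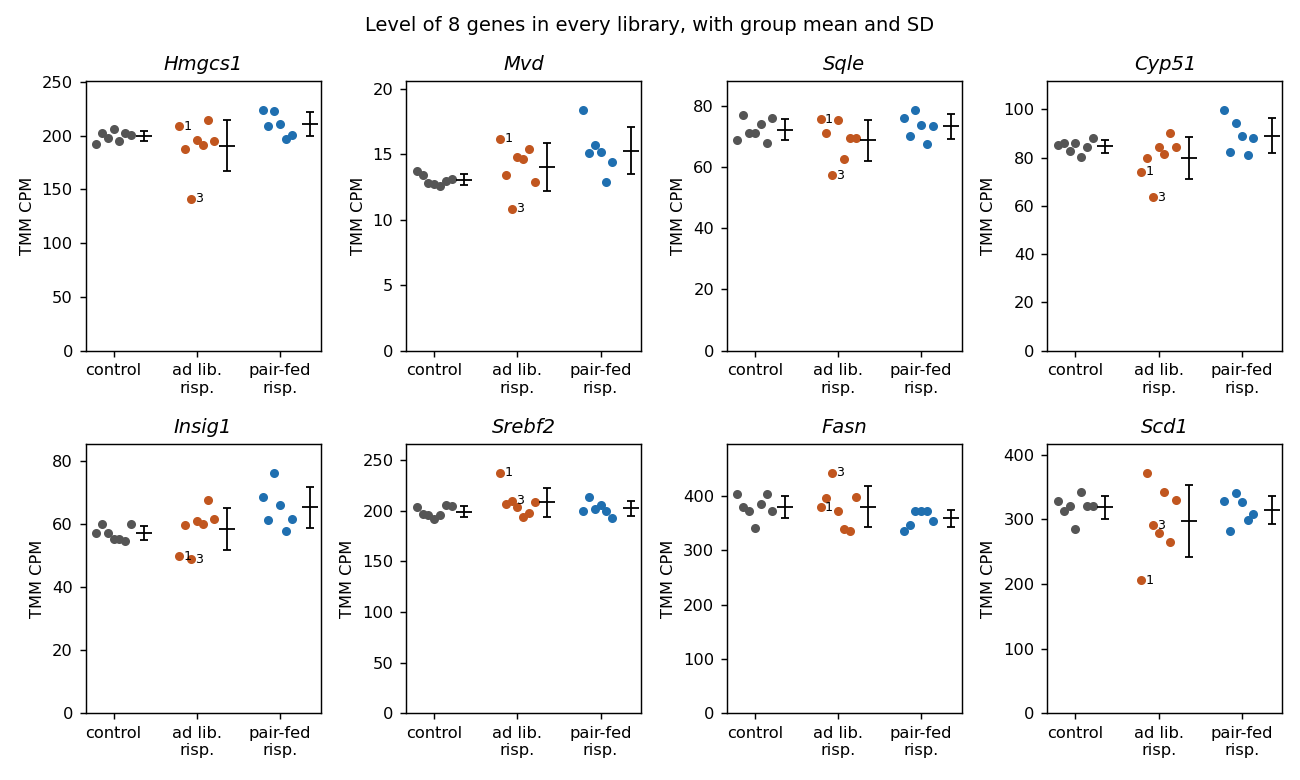
TMM-scaled CPM of 8 genes in each library (points), with the group mean and SD beside them (black). The numbers 1 and 3 mark the ad libitum risperidone libraries that stand apart, of which library 3 is lowest for Hmgcs1, Mvd, Sqle, Cyp51 and Insig1, and library 1 is highest for Srebf2 and lowest for Scd1.

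Among the regulators, Insig1, which retains the Scap complex and is itself an SREBP target, showed the second smallest p in the pair-fed comparison. It was 54.54 to 60.08 CPM in control (median 57.18), 48.87 to 67.56 CPM in ad libitum risperidone (median 60.11) and 57.78 to 76.26 CPM in pair-fed libraries (median 63.81). All 6 pair-fed libraries lay above the control mean of 57.03 CPM, and the lowest of them fell inside the control range. In log2 terms the fold change was 0.19 (SE 0.0684) in pair-fed risperidone against control, with an edgeR adjusted p of 0.451, and 0.16 (SE 0.0687, adjusted p 0.331) between the risperidone groups. Without ad libitum libraries 1 and 3, the pair-fed value was 0.19 with an adjusted p of 0.058, the smallest that any member reached in any setting run. In ad libitum risperidone against control it was 0.04 (SE 0.0663, adjusted p 0.86), and for both groups together 0.12 (SE 0.0582, adjusted p 0.646). Leaving out ad libitum libraries 1 and 3 moved the ad libitum value to 0.12 (adjusted p 0.361) and the value between the risperidone groups to 0.07 (adjusted p 0.695).

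Insig2, the second retention protein, pointed the other way without passing the threshold. It was 39.33 to 50.24 CPM in control (median 43.29), 35.07 to 46.34 CPM in ad libitum risperidone (median 41.72) and 39.29 to 43.07 CPM in pair-fed libraries (median 41.02), and 1 of 13 risperidone libraries lay above the control mean. For both groups against control the log2 fold change was -0.09 (SE 0.0505), with an edgeR adjusted p of 0.665. It was -0.09 (SE 0.0579, adjusted p 0.511) in ad libitum and -0.10 (SE 0.06, adjusted p 0.872) in pair-fed risperidone. With ad libitum libraries 1 and 3 left out the ad libitum value was -0.03 (adjusted p 0.891), and the pair-fed value stayed at -0.10.

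The messages of the SREBPs themselves did not pass the test. Srebf2 was 191.8 to 205.5 CPM in control (median 196.8), 193.7 to 237.5 CPM in ad libitum risperidone (median 206.1) and 192.5 to 213.7 CPM in pair-fed libraries (median 200.8). Its log2 fold change was 0.06 (SE 0.0406, edgeR adjusted p 0.519) in ad libitum and 0.02 (SE 0.0422, adjusted p 0.996) in pair-fed risperidone against control. The highest ad libitum library was number 1, and without libraries 1 and 3 the ad libitum value was 0.02 (adjusted p 0.886). Srebf1 was 71.58 to 83.44 CPM in control (median 74.24), 56.48 to 87.89 CPM in ad libitum risperidone (median 77.56) and 75.08 to 83.34 CPM in pair-fed libraries (median 78.94). Both ends of its ad libitum range came from the libraries that stand apart, with library 1 lowest and library 3 highest. Its log2 fold change was -0.02 (SE 0.0672, adjusted p 0.956) in ad libitum and 0.05 (SE 0.0696, adjusted p 0.993) in pair-fed risperidone, and without these libraries the ad libitum value was 0.01. The counts do not separate the isoforms of Srebf1, and the amount of cleaved protein was not measured. Scap was 0.05 and 0.00 on the same scale in the 2 groups, and Stard4, a sterol carrier of the cytosol, 0.03 and 0.12.

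In fatty acid synthesis, Fasn, the synthase that builds palmitate, was 341.4 to 402.6 CPM in control (median 378.2), 334.6 to 442.2 CPM in ad libitum risperidone (median 378.5) and 335.9 to 372.4 CPM in pair-fed libraries (median 362.4). The highest value was that of ad libitum library 3, and all 6 pair-fed libraries lay below the control mean of 379 CPM. For Fasn the log2 fold change was 0.00 (SE 0.0548, edgeR adjusted p 0.997) in ad libitum and -0.08 (SE 0.057, adjusted p 0.9) in pair-fed risperidone against control, and -0.08 (SE 0.0571, adjusted p 0.536) between the risperidone groups. Without ad libitum libraries 1 and 3 the ad libitum value was -0.05 (adjusted p 0.77) and that between the risperidone groups -0.04 (adjusted p 0.865).

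Me1, malic enzyme, which supplies NADPH, was the member with the smallest p in ad libitum risperidone against control. It was 64.52 to 73.14 CPM in control (median 66.08), 54.65 to 66.94 CPM in ad libitum risperidone (median 63.42) and 65.23 to 70.01 CPM in pair-fed libraries (median 66.93). All 7 ad libitum libraries lay below the control mean of 67.31 CPM, and library 3 was lowest. Me1 had a log2 fold change of -0.09 (SE 0.0425), with an edgeR adjusted p of 0.35, and 0.00 (SE 0.044, adjusted p 1) in pair-fed risperidone. The ad libitum value of Me1 was -0.05 (adjusted p 0.617) without libraries 1 and 3. Fads1, the delta-5 desaturase of polyunsaturated fatty acids, was 261.3 to 288.7 CPM in control (median 265.4), 234.9 to 285.4 CPM in ad libitum risperidone (median 249.5) and 253.1 to 271.3 CPM in pair-fed libraries (median 260.9). Its log2 fold change was -0.07 (SE 0.0437, adjusted p 0.479) in ad libitum and -0.03 (SE 0.0454, adjusted p 0.991) in pair-fed risperidone, and -0.03 in ad libitum risperidone without libraries 1 and 3 (adjusted p 0.803).

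The stearoyl-CoA desaturases, which make monounsaturated fatty acids, had their lowest values in a library that stands apart. Scd1 was 285.4 to 341.5 CPM in control (median 319.9), 205.5 to 372.1 CPM in ad libitum risperidone (median 290.7) and 282.6 to 341.1 CPM in pair-fed libraries (median 317.6). Scd2 was 1423 to 1645 CPM in control (median 1583), 1288 to 1680 CPM in ad libitum risperidone (median 1628) and 1487 to 1733 CPM in pair-fed libraries (median 1556). The lowest value of both genes came from ad libitum library 1, the library whose myelin marker sum was 3252 CPM. Its markers of cortex, hippocampus and amygdala summed to 1280 CPM and those of hypothalamus to 547.7 CPM. The part of these features in the values of Scd1 and Scd2 was not tested. In bulk tissue, fewer cells of a type and less RNA per cell cannot be told apart. For Scd1 the log2 fold change was -0.10 (SE 0.0888, edgeR adjusted p 0.681) in ad libitum and -0.02 (SE 0.0923, adjusted p 1) in pair-fed risperidone. The ad libitum value of Scd1 was -0.01 (adjusted p 0.989) without libraries 1 and 3. For Scd2 it was 0.00 (SE 0.0571, adjusted p 0.989) and 0.02 (SE 0.0594, adjusted p 1) in the same order, with 0.06 (adjusted p 0.618) in ad libitum risperidone without libraries 1 and 3.

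The remaining members of the branch are Acaca, acetyl-CoA carboxylase, Acly and Acss2, which supply acetyl-CoA from citrate and acetate, Elovl6, which lengthens palmitate, and Fads2. Their log2 fold changes against control ran from -0.04 (Acly) to 0.09 (Acaca) in ad libitum and from -0.03 (Fads2) to 0.09 (Elovl6) in pair-fed risperidone. The Acaca value in the ad libitum group included 150.1 CPM in library 3, against 103.6 to 126.5 CPM in control, and was 0.06 without libraries 1 and 3 (adjusted p 0.751).

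Read as branches, the members were described by the sign and median of their estimates, with no test of a branch or of a difference between branches, and 0 of 18 sterol and 0 of 10 fatty acid genes were called in any comparison. All 18 sterol genes had an estimate above zero in pair-fed risperidone against control, with a median of 0.0818, where 51.5% of all genes tested were above zero with a median of 0.00265. In ad libitum risperidone against control 8 of 18 were above zero, with a median of -0.0257 (all genes 52.9% and 0.00766), and the median was -0.00694 without ad libitum library 3. Between the risperidone groups 17 of 18 were above zero, with a median of 0.0933 (all genes 48.4% and -0.00486), and these comparisons share libraries. For the mean of both groups against control the count was 14 of 18, with a median of 0.0198 (all genes 53.4% and 0.0067), and the median was 0.0348 without ad libitum library 3. The 10 fatty acid genes had medians of -0.0183 in ad libitum and -0.00893 in pair-fed risperidone against control, 0.0198 between the risperidone groups and -0.0322 for both averaged. Without pair-fed library 2 the pair-fed median of these genes was 0.00805, and without ad libitum libraries 1 and 3 that between the risperidone groups was -0.0051. Over all 34 members the medians were -0.00496, 0.0539, 0.0661 and 0.0187 in the same order. These counts carry no test, since the genes of a branch may vary together within libraries. Only 2 of the 18 sterol genes had an unadjusted p under 0.05 in the pair-fed comparison. There the estimates of Tm7sf2 and Pmvk were 0.01, and Fdps, whose counts are uncertain, had an SE of 0.175.

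By library, the median deviation of the 18 sterol genes from their control means was -0.0433 to 0.0276 in control, with a median of -0.00934. In ad libitum risperidone it was -0.262 in library 3 and -0.0324 to 0.0621 in the others. In pair-fed libraries it was 0.187 in library 1, 0.155 in library 3, 0.0722 in library 2, 0.0306 in library 4, 0.0284 in library 6 and -0.00528 in library 5. So 5 of 6 pair-fed libraries were above the highest control library, libraries 4 and 6 by a narrow margin, and the sixth lay within the control range. Ad libitum library 6 was also above the highest control library, at 0.0621. By the summed level of the 18 genes, 4 of 6 pair-fed libraries were above the highest control library, at 997.2 to 1082 CPM against 987.4 CPM. On that measure too ad libitum library 6 was above it, at 990.4 CPM. Library 3 of the ad libitum group had 3 of 18 sterol genes above their control mean, and is also the library with low depth and 32.2% ribosomal counts. Its 4 striatum markers summed to 223.7 CPM, against 106.7 to 171.5 CPM in the other libraries, and its neuron (2438 CPM) and astrocyte (2089 CPM) marker sums were the lowest of all libraries. The part of these features in its sterol values was not tested. Without ad libitum libraries 1 and 3 the sterol median between the risperidone groups was 0.0731, with 16 of 18 genes above zero. Without pair-fed library 1 the sterol median against control was 0.0566.

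**Figure D4:**
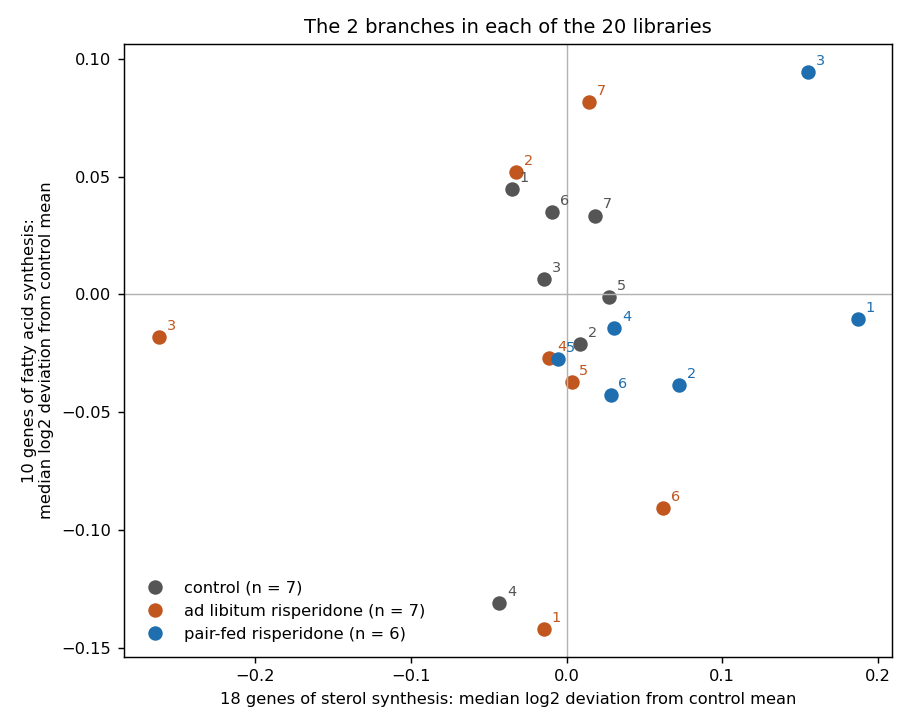
Median log2 deviation from the control mean of the 18 sterol genes (horizontal) and of the 10 fatty acid genes (vertical) in each of the 20 libraries, numbered within their group. Ad libitum library 3 lies far to the left at -0.262, pair-fed libraries 1 and 3 far to the right at 0.187 and 0.155, and control library 4 and ad libitum library 1 lowest, at -0.131 and -0.142.

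The fatty acid branch was set apart by other libraries. Its median deviation was -0.131 to 0.0446 in control, with library 4 lowest, -0.142 to 0.0815 in ad libitum risperidone, with library 1 lowest, and -0.0427 to 0.0945 in pair-fed libraries. In control library 4 and ad libitum library 1, 0 of 10 fatty acid genes were above their control mean. The myelin marker sum of ad libitum library 1 was also the lowest of all libraries, at 3252 CPM. Its markers of cortex, hippocampus and amygdala had the highest sum, at 1280 CPM. The part of these features in its fatty acid values was not tested.

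**Figure D5:**
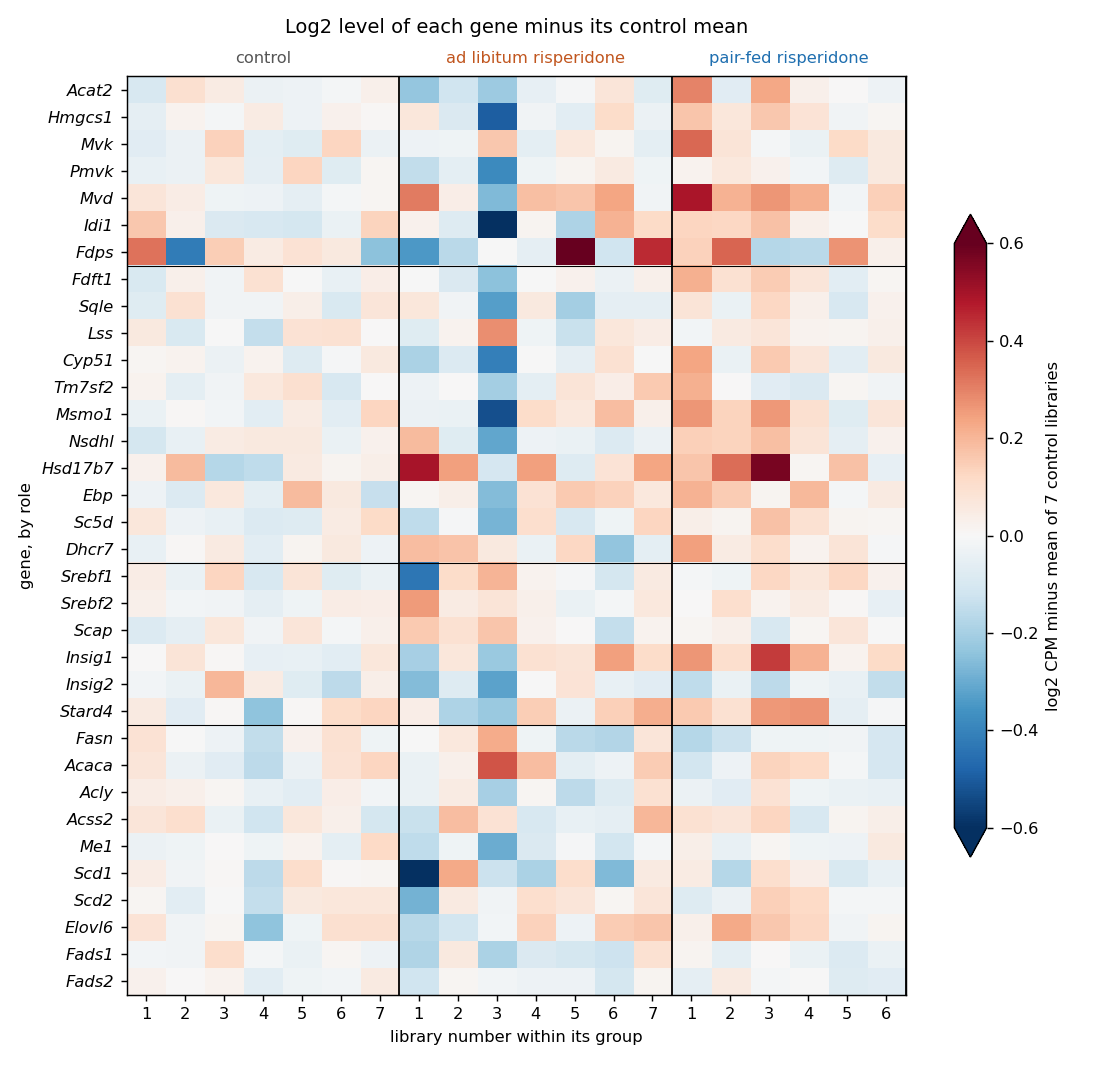
Log2 CPM of each gene minus the mean of the 7 control libraries, with genes by role in rows and libraries in columns, on a colour scale that ends at 0.6 in either direction. The column of ad libitum library 3 is blue through most of the sterol genes, pair-fed libraries 1 and 3 are red in most of the sterol rows, and 3 values lie beyond the ends of the scale.

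Pairs of members were compared over the 20 libraries after subtracting each group's mean, with permutation tests adjusted over 6 pairs, of which 4 are reported here. Hmgcs1 varied with Sqle (Pearson r = 0.738, permutation p = 0.0006, adjusted p = 0.0018, Spearman rho = 0.598, p = 0.00598, adjusted p = 0.0233). Leaving out the 2 libraries farthest from the median of Hmgcs1 gave r = 0.62, and leaving out ad libitum libraries 1 and 3 gave r = 0.419 (adjusted p = 0.112). Hmgcs1 varied with Insig1 (r = 0.592, permutation p = 0.00506, adjusted p = 0.00759, rho = 0.565, p = 0.011, adjusted p = 0.0233). That relation was 0.226 without the 2 farthest libraries, which were ad libitum 3 and 6, and 0.757 without ad libitum libraries 1 and 3 (adjusted p = 0.00132). Leaving out ad libitum library 6 and pair-fed library 1 besides those gave 0.71, so that the value depends on which of these libraries are kept.

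Across the branches, Hmgcs1 varied inversely with Fasn (r = -0.66, permutation p = 0.00203, adjusted p = 0.00406, rho = -0.433, p = 0.0598, adjusted p = 0.0898). It was -0.232 without the 2 farthest libraries and so rests on them, and -0.454 without ad libitum libraries 1 and 3 (adjusted p = 0.112). Fasn and Scd2 had r = 0.209 (permutation p = 0.37, adjusted p = 0.444, rho = 0.236, p = 0.313, adjusted p = 0.375), 0.338 without the 2 farthest libraries and 0.588 without ad libitum libraries 1 and 3 (adjusted p = 0.0316).

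Genes around the pathway were read from 4 neighbouring lists. Of 12 genes that process or degrade the SREBP complex, such as the proteases Mbtps1 and Mbtps2, 0 passed in any comparison, and the smallest p was that of Erlin2, with a log2 fold change of -0.12 (SE 0.0427, edgeR adjusted p 0.268) in ad libitum risperidone against control. Of the isoprenoid branch 9 of 10 genes were tested and 0 passed, and of 14 genes of the liver X receptor response and sterol disposal 0 passed. In the last list Osbpl1a, an oxysterol-binding protein, had 0.21 (SE 0.0821, adjusted p 0.289) in ad libitum risperidone against control, and Cyp46a1, the enzyme by which brain clears cholesterol, -0.19 (SE 0.108, adjusted p 0.446) between the risperidone groups. Their medians over the comparisons lay between -0.0171 and 0.0244.

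In the list of other fatty acid genes, 23 of 24 were tested and 1 passed, in a comparison where 0.397% of all genes were called. Mid1ip1, which promotes the polymerization and activity of acetyl-CoA carboxylase, was higher in pair-fed than in ad libitum risperidone, with a log2 fold change of 0.26 (SE 0.0564) and an edgeR adjusted p of 0.0362. It was 63.4 to 68.6 CPM in control, 47.7 to 64.8 CPM in ad libitum risperidone and 67.6 to 77 CPM in pair-fed libraries. The risperidone groups did not overlap for this gene, and the share of all genes tested without overlap was not computed. The call was lost in 13 of 31 other settings, 9 of which leave out a single library (control 2 or 5, ad libitum 3 or 4, or pair-fed 1, 3, 4, 5 or 6), with log2 fold changes of 0.25 to 0.28 and adjusted p of 0.0501 to 0.214. The other 4 are upper quartile scaling, no filter, the compared groups alone and the replicate block. Over all 31 other settings the log2 fold change of Mid1ip1 was 0.19 to 0.28. Acacb, the mitochondrial acetyl-CoA carboxylase, was -0.39 (SE 0.103, adjusted p 0.102) in the same comparison, at 10.2 to 17.9 CPM in ad libitum and 9.68 to 10.5 CPM in pair-fed libraries.

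Of the cell type and region markers examined, 1 passed. Of all genes, 0.486% were called in pair-fed risperidone against control and 0.33% for both groups averaged. Gjb6, a connexin of astrocytes, was lower in pair-fed risperidone than in control, with a log2 fold change of -0.36 and an edgeR adjusted p of 0.00452, at 104 to 120 CPM in control and 74.2 to 97.9 CPM in pair-fed libraries. It was also lower for the mean of both risperidone groups (-0.27, adjusted p 0.0263), a call lost without control library 1, 2, 3, 4 or 5, with a largest adjusted p of 0.0811. The 7 astrocyte markers together summed to 2288 to 2612 CPM in control and 2218 to 2377 CPM in pair-fed libraries, with ranges that overlapped. The 8 myelin markers summed to 6024 to 8428 CPM in control and 6966 to 9281 CPM in pair-fed libraries, and all 8 had estimates above zero in that comparison, with a median of 0.164 and 0 past the threshold. All 4 markers of oligodendrocyte precursors had estimates below zero there, with a median of -0.149, sums of 175.1 to 199 CPM in control and 163 to 183.9 CPM in pair-fed libraries, and 0 past the threshold. In pair-fed against ad libitum risperidone, 5 of 6 markers of ependyma and tanycytes had estimates above zero (median 0.339). Of 8 markers of cortex, hippocampus and amygdala 0 did (median -1.45, with ad libitum library 1 included). Above zero were also 10 of 10 hypothalamus markers (median 0.21), 4 of 4 of meninges (0.407), 0 of 4 of striatum (-0.208), 0 of 5 of thalamus (-0.185) and 1 of 4 of choroid plexus (-0.64). None of these markers passed. Thalamus markers summed to 75.99 to 86.64 CPM in control, 78.19 to 120.4 CPM in ad libitum and 75.04 to 103 CPM in pair-fed libraries. Ad libitum libraries 3, 5, 6 and 7 were above the highest control library. Ependyma markers summed to 73.55 to 90.19 CPM in ad libitum and 78.96 to 101.4 CPM in pair-fed libraries. The part of cell content in the sterol values of either comparison was not tested.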

How the data were processed

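The authors deposited 1 table of raw counts per gene in whole numbers, with a column for each library. Per the submitters' processing notes, the tools named are STAR, featureCounts and DESeq2 and the builds GRCm38 and mm10. For versions, annotation and strand setting, the answer is not given in the sources used here. The unit was read from the values. Of 55471 genes, 55230 were matched to GENCODE GRCm38 names.

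From the counts, libraries were scaled with TMM and genes kept with filterByExpr (minimum count 10), leaving 17893. One model with a coefficient per group over all 20 libraries was fitted in edgeR 4.0.16 (R 4.3.3) and tested by quasi-likelihood, two-sided, with Benjamini-Hochberg adjustment over all genes in each comparison and a threshold of 0.05. CPM are TMM-scaled, and RPKM use the summed exon length. A prior count of 2 went into log values for single libraries. The common biological coefficient of variation was 11.26%. Depth was 17316043 to 18606543 counts per library, and 9748005 in 1 library, and each member's precision is given by its standard error. Over 57 pairs of libraries of 1 group, chi-square divided by its degrees of freedom was at least 2.64, so no library was counted as a repeat of another. Scripts were tested on simulated counts.

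Correlations used 100000 permutations in numpy 2.4.6, and 2 of the 6 pairs are not reported here. Alternatives were other scalings (RLE, upper quartile), no filter or a mean of at least 1 CPM, limma-voom (limma 3.58.1, with quality weights), DESeq2 1.42.0, robust dispersions, the compared groups alone, a replicate block, ribosomal RNA genes left out, each library left out, and ad libitum libraries 1 and 3 left out. The members and lists were chosen with earlier results of these data known. Statistics in full are given for the 4 members with the smallest p in each comparison and for Hmgcs1, Sqle, Insig1, Srebf1, Srebf2, Fasn, Scd1 and Scd2, and from neighbouring lists for genes past the threshold or those with the smallest p. Acacb was named after its values were seen, as were Dhcr7 and the markers named.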

Additional observations from a re-analysis of the deposited data

Results flagged for a closer look

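Within each group, a library was singled out where its gap to the nearest other library was a large share of the group's range (Dixon's criterion at 95%). Of 102 tests, 34 genes in 3 groups, 10 met it, where a nominal rate of 1 in 20 gives 5.1. The share over all genes tested was not computed, so this count sets the members apart in no way. Of the 10, 3 fell in ad libitum library 3 and 2 in ad libitum library 1, the libraries that stand apart. In ad libitum library 3, Hmgcs1 was at 141.3 CPM (the other libraries of its group 187.8 to 214.9), Msmo1 at 70.84 CPM (99.53 to 116.4) and Ebp at 14.51 CPM (17.54 to 19.36). The summed level of the 18 sterol genes was also singled out there, at 773.5 CPM, against 930.9 to 990.4 CPM in the other libraries of the group. In ad libitum library 1, Srebf2 was at 237.5 CPM (193.7 to 209.7) and Scd2 at 1288 CPM (1547 to 1680).

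In pair-fed library 1, Mvk was at 22.93 CPM (17.51 to 19.48) and Tm7sf2 at 19.02 CPM (15.44 to 16.53), and in pair-fed library 3 Acly was at 226 CPM (202.8 to 209). In the control group, Elovl6 was at 71.52 CPM in library 4 (83.03 to 90.29) and Fads1 at 288.7 CPM in library 3 (261.3 to 270.5). For no member were all ad libitum libraries on one side of the control mean and all pair-fed libraries on the other.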

How the results depend on the processing

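The count of 0 members called held in each of the 31 other settings (30 for the mean of both groups), and 0 of 4182 recomputed member values passed the threshold. The smallest adjusted p of a member over these settings was 0.252 for ad libitum risperidone and 0.058 for pair-fed risperidone, each against control, 0.131 between the risperidone groups and 0.0999 for both averaged, and members with an unadjusted p under 0.05 numbered 0 to 3, 2 to 6, 1 to 8 and 1 to 4. The sign of an estimate changed in 197 of the 4182 values, all with a size of at most 0.0989 on the log2 scale as first fitted. Sterol genes above zero numbered 5 to 9, 16 to 18, 15 to 18 and 12 to 16 of 18 in the same order.

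Between the risperidone groups, the member median of 0.0661 was 0.0311 in limma-voom and 0.0331 when ad libitum libraries 1 and 3 were left out. The cause of the first was not tested, and the second has fewer samples. Leaving out each library in turn gave 0.0496 to 0.0828, and the sterol median then was 0.067 (without ad libitum library 3) to 0.116. Over all settings the sterol median was -0.0396 to -0.00217 in ad libitum risperidone and 0.0566 to 0.0984 in pair-fed risperidone against control, and 0.011 to 0.0348 for both averaged, and the fatty acid median -0.0353 to -0.00983, -0.0287 to 0.00805 and -0.0412 to -0.0161, with -0.0051 to 0.0473 between the risperidone groups. Without ad libitum libraries 1 and 3 the correlation of Hmgcs1 with Sqle was 0.419 and that of Hmgcs1 with Fasn -0.454, both no longer past the threshold, and that of Fasn with Scd2 was 0.588, now past it. In the 250 bases before the start alone, the NF-Y box was in 21 members and the others were as before.

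No pairing by replicate number was seen in the counts. Same-numbered libraries had correlations of -0.158 to 0.304, and 2 of 19 pairs were over 0.1. Of 20 libraries, 0 lay closest to their own number. Such values cannot show that the numbers do not mark matched samples, and a replicate block was also run. With a replicate block 0 members were called, and all genes called were 1, 65, 48 and 45 in place of 11, 87, 71 and 59. Counts over all genes that moved by more than 1.5 times were, for ad libitum risperidone against control, 113 with DESeq2, 51 with limma-voom, 3 with the compared groups alone, 48 without ad libitum libraries 1 and 3, and 0 (leaving out any of control libraries 1 to 5, or number 2 or 7 of the ad libitum group) to 35 (without ad libitum library 1) leaving out single libraries. For pair-fed risperidone against control they were 132, 223, 245, 250 and 166 (without ad libitum library 1) in the same order, and between the risperidone groups 167, 139, 31, 142 and 39 (without pair-fed library 6) to 130 (without ad libitum library 1). For both groups averaged they were 97 with DESeq2, 151 with limma-voom, 193 without ad libitum libraries 1 and 3, and 36 (without control library 4) to 99 (without ad libitum library 1), where a fit of the compared groups alone would be the same fit and was not run. Fdps, at 1.43 CPM in control, had the widest interval.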
